A study of Mus musculus with 48 samples.

Results

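Neonatal mice received interleukin 1B (IL1B) over the first postnatal days, and the gene expression of their O4+ cells was read on the last day of treatment (P5) and again 5 days later (P10). Described here is how the response of O4+ cells to IL1B at P10 differed from the response at P5, gene by gene. All 24 arrays of O4+ cells among the 48 arrays of the series were used, chosen by their labels, in 4 groups of 6 (PBS at P5, IL1B at P5, PBS at P10, IL1B at P10). The other 24 arrays hold CD11B+ cells, mainly microglia, sorted after the O4+ cells from the same animals, and serve only as a comparison at the end.

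The pups of every group were male Swiss mice, by the labels, and were injected intraperitoneally from P1 to P4 and a last time at P5. IL1B groups were given 10 ng/g and control groups PBS alone. The labels place the P5 collection 2 h after the last injection, whereas the study's methods name the OF1 strain and a longer interval, so the time since the last dose at P5 is known only roughly. The free description of the P10 samples repeats P5, and their titles and stage give P10, which was used. O4+ cells were enriched with magnetic beads from pooled brains, so 1 array stands for several animals, and p-values measure the spread between pools. The labels name no transgene or deletion in any group. All P5 arrays were treated hours before collection and all P10 arrays days before, so age and time since treatment cannot be told apart.

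O4 is a lipid antigen of late oligodendrocyte progenitors and immature oligodendrocytes. These cells leave the cell cycle and switch on myelin genes during the days studied here. IL1B binds a receptor whose adaptor MYD88 leads to activation of NF-kappaB, a family of transcription factors that induces chemokines, adhesion molecules and its own inhibitors. Injected into newborn mice, it is used as a model of the inflammation that preterm infants meet while their white matter forms.

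Signals are given as log2 of the background-subtracted intensity after quantile normalization over the 24 arrays. A response is the difference IL1B minus PBS at one age on this log2 scale, and the interaction is the response at P10 minus the response at P5. Each is given with its standard error (SE), and p-values are from limma with Benjamini-Hochberg adjustment over 55681 probes. Calls of a response needed an adjusted p below 0.05 and group medians that differed by more than 1.5-fold, and those of an interaction the adjusted p alone. A response was named transient when it was called at P5 and not at P10, the interaction was called against it, and the P10 response was smaller by more than a factor of 2 or opposite. Late is the mirror of that rule, lasting means called at both ages with 1 sign, and opposite means called at both ages with opposite signs. Genes that lead a class were picked among those whose IL1B and PBS arrays did not overlap at each age called. Their separation at those ages follows from that choice.

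The labelled cell type was checked first. All 8 oligodendrocyte lineage markers, among them Olig1, Olig2, Sox10 and Pdgfra, exceeded background on each of the 24 arrays, and no pair of arrays within a group correlated below 0.983. The mean log2 signal of the 8 markers was 14.72 to 14.92 with PBS and 14.45 to 14.72 with IL1B at P5. At P10 it was 15.24 to 15.29 and 15.23 to 15.44. Their median response was -0.30 at P5 and 0 at P10. For 3 of the 8 an interaction was called with the more positive response at P10, beside 11.6% of all genes. Markers of other cells were present as well: all 18 microglial, 8 endothelial, 8 astrocyte and 4 erythroid markers were well above background on all 24 arrays. The ages share no slide and no scan day, so levels compared between ages cannot be told apart from differences between slides or scans. At P5, 4 of the IL1B arrays lay on a slide without PBS O4+ arrays, and at P10 3 did. Values within the slides that hold both groups are therefore given beside the main results. They come from the same arrays and are no independent test.

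The interaction was called for 7322 probes (13.1% of those tested), of which 4361 (7.83%) had the more positive response at P10 and 2961 (5.32%) the more positive response at P5. That split depended on the scaling. With arrays scaled to their 75th percentile in place of quantile normalization, the median P10 response over all probes moved from -0.02 to -0.19 and the median interaction from 0.01 to -0.11, and the share with the more positive response at P10 went from 59.6% to 36.9%. With slide as a block, 2015 and 1884 probes were called, of which 1787 and 1452 were among the 4361 and 2961 called without it. All probes called without the block kept the sign of their interaction. That is no second test, since both fits use the same arrays. The P5 response was called for 1912 higher (3.43%) and 827 lower probes (1.49%), and the P10 response for 1384 higher (2.49%) and 789 lower (1.42%).

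Most called responses belonged to 1 age. At P5 only, 2313 probes were called, at P10 only 1747, and at both ages 426. Since a call at 1 age does not by itself show a difference between ages, 1747 of the single-age calls stayed unresolved. The rest fell into 871 transient higher (1.56%), 390 transient lower (0.7%), 336 lasting higher (0.603%), 44 lasting lower (0.079%), 719 late higher (1.29%), 333 late lower (0.598%) and 46 opposite probes (0.0826%). A further 4833 probes were called by the interaction and at neither age. Over the 24325 genes with 1 probe each, the responses at the 2 ages, which share no array, had a Pearson r of 0.28 and a Spearman rho of 0.12. These are correlations across genes, which are not independent replicates.

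**Figure D1:**
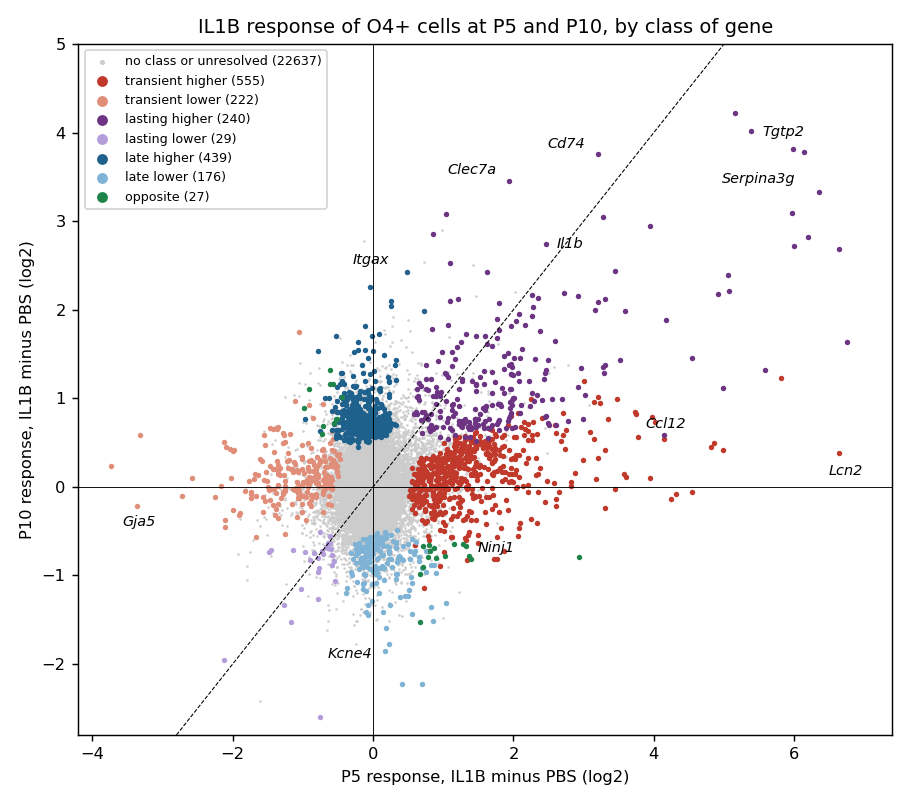
Response to IL1B at P5 (horizontal axis, log2) against the response at P10 (vertical axis, log2) for 24325 genes in O4+ cells, 1 probe each, coloured by class with the number of genes in brackets. Equal responses lie on the dashed line. Lcn2 lies far to the right at a P10 response of 0.38, Tgtp2 and Cd74 are high on both axes, and late genes stand above and below 0 along the vertical axis.

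Stretches before the start sites of genes on which the results turn are printed here, with the short motifs that they hold. They come from RefSeq promoter windows on GRCm38.p6 (250 bases before to 50 after the start), read 5′ to 3′ on the gene's strand, and end at the base before the start site. Capitals mark the motifs searched, on both strands, and the marked matches of a gene do not overlap. NF-kappaB sites were sought as GGGA and CC with any 4 bases between them, and Tnip1, an inhibitor of the pathway, and Sele, the endothelial adhesion molecule E-selectin, both transient, hold a match.
Tnip1 (chr11:54962941-54963030, minus strand): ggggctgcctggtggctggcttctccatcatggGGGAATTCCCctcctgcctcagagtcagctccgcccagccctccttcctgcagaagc
Sele (chr1:164048084-164048233, plus strand): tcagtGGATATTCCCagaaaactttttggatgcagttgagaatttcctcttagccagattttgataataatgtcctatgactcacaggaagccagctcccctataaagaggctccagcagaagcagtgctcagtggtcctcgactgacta
A match stood in 20.7% of all 32851 windows, in 51.9% of the 27 windows of IL1 and NF-kappaB genes, in 43.8% of those of acute-phase genes and in 47.6% of those of mitosis genes. By class it stood in 28.4% of transient higher, 31.4% of lasting higher, 29.4% of late higher and 31.5% of late lower windows. The window of Lcn2 holds no match.

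Some genes of interferon-inducible GTPases carry a different pair. The STAT motif TTCNNNGAA stands 2 bases before the core of the interferon-stimulated response element (GAAA, any 2 bases and GAAA again) in Tgtp2, Igtp and Irgm2, which were lasting.
Tgtp2 (chr11:49064213-49064302, minus strand): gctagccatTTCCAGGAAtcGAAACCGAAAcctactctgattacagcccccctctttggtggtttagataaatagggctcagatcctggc
Igtp (chr11:58199466-58199555, plus strand): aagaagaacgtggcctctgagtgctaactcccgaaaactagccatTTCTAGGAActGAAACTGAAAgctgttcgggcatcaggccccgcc
Irgm2 (chr11:58214887-58214976, plus strand): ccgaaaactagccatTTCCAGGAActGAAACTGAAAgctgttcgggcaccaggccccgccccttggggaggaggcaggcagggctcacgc
The response element core was found in 9 of the 11 windows of the GTPase list (81.8%), against 3.44% of all windows, 13% of lasting higher and 6.46% of transient higher windows. The STAT motif was in 6 of the 11 (54.5%), against 8.3% of all windows.

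Mitotic genes, which responded late, hold the Y box GATTGG and the cell cycle homology region (CHR), searched as TTTGAA or TTCGAA. Cdc20, Top2a and Mki67, which match both, are shown with the Y box first.
Cdc20 (chr4:118437344-118437433, minus strand): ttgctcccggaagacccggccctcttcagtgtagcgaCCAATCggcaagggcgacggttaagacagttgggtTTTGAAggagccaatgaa
Top2a (chr11:99024190-99024279, minus strand): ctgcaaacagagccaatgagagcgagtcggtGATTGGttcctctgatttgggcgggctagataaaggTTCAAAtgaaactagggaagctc
Mki67 (chr7:135716380-135716529, minus strand): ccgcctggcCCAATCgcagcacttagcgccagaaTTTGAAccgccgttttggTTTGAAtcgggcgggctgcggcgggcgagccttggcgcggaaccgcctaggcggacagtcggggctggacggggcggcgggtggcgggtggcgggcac
Of the 21 windows of the mitosis list, 17 hold the CHR (81%) and 13 the Y box (61.9%), against 19.2% and 16.1% of all windows. Among late higher genes the shares were 25.1% and 23.7%. A match describes the letters and shows no binding.

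The transient rise with the largest interaction was that of Lcn2. Lcn2 encodes lipocalin 2, which withholds iron from bacteria and is a classical acute-phase protein (its probe lies at chr2:32240199-32240258 of mm9). Its log2 signal ran from 5.90 over a median of 6.12 to 6.69 in PBS cells at P5 and from 11.99 over 12.94 to 13.51 in IL1B cells at P5. At the later age it ran from 5.81 over 5.93 to 6.37 with PBS and from 5.47 over 6.54 to 6.77 with IL1B. The groups were thus far apart at P5 and overlapped at P10. The response of 6.64 ± 0.23 (114-fold) at P5 and 0.38 ± 0.21 at P10 gave an interaction of -6.26 ± 0.31 (adjusted p = 1.34e-10, limma), the largest among the 412 transient higher genes that were above background on all arrays and did not overlap between groups at P5. Of the slides that hold both groups, both at P5 and 1 of the 2 at P10 hold a single IL1B array, so every within-slide value at P5 rests on 1 IL1B array per slide. Within these slides, the Lcn2 response was 6.81 and 6.45 at P5 and 0.48 and 0.83 at P10.

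Ccl12, a chemokine that attracts monocytes, kept a trace of its response. Its signal at P5 was 10.39 to 10.83 (median 10.66) on PBS arrays and 14.22 to 14.68 (median 14.36) on IL1B arrays, without overlap. At P10 the ranges of 9 to 9.61 (median 9.38) and 9.55 to 10.36 (median 9.77) touched. The interaction was -3.22 ± 0.20 (adjusted p = 1.7e-09, limma). At P10 the response of 0.56 had an adjusted p of 0.0493 in limma but a ratio of medians of only 1.31, under the threshold for a call.

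The other 8 leading genes of the class, chosen to have all P5 IL1B arrays above all P5 PBS arrays, had interactions between -2.82 and -2.41. They were Pla1a, a phospholipase that acts on phosphatidylserine, Hif3a, a hypoxia-inducible factor subunit, Plaur, the urokinase receptor, the protease inhibitors Serpina3h and Serpina3b, Wfdc17, Apoc2, a cofactor of lipoprotein lipase, and Hpn, a membrane serine protease. Plaur, for instance, went from a median of 8.90 to 11.24 at P5 and from 9.71 to 9.30 at P10 (interaction -2.75 ± 0.19, adjusted p = 1.34e-08, limma). Serpina3 genes are near-identical neighbours whose probes can share targets, so the value of a single one is uncertain. Of the 3 probes of Hif3a, 2 were called.

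**Figure D2:**
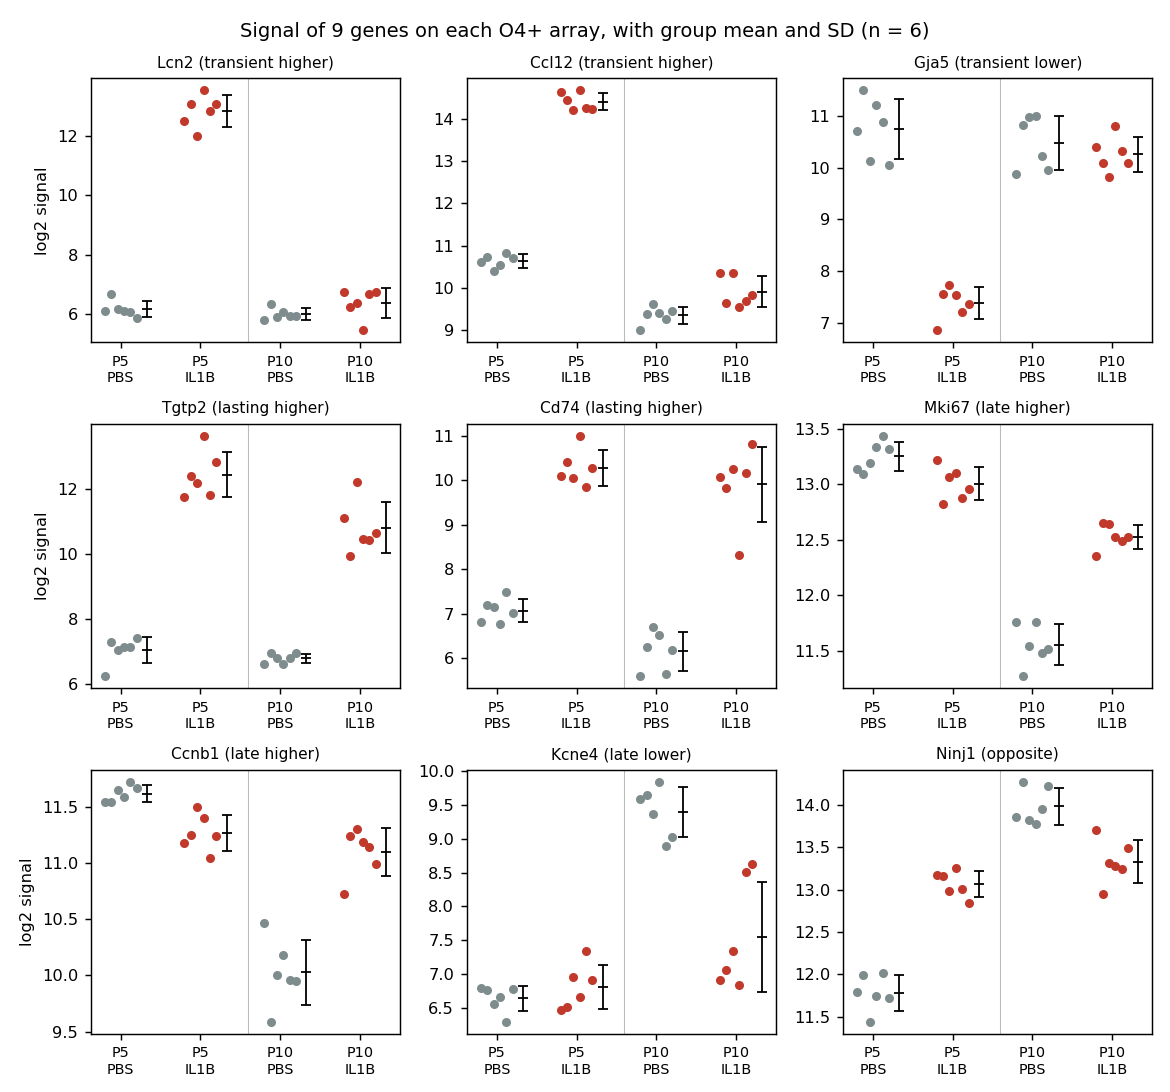
Log2 signal (vertical axes) of 9 genes on each of the 24 O4+ arrays, PBS in grey and IL1B in red at P5 and P10. Bars give the mean and SD of 6 arrays. For Lcn2 the IL1B arrays stand apart from PBS only at P5, for Tgtp2 and Cd74 at both ages, for Kcne4 only at P10, and for Ninj1 they lie above PBS at P5 and below it at P10.

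Acute-phase proteins as a list followed Lcn2. Of 18 measured genes, 12 had an interaction called with the more positive response at P5 and 0 with the more positive response at P10, where all genes had 6.73% and 11.6%. The median response was 2.67 at P5 and 0.46 at P10, against -0.05 and -0.01 over all genes. Besides Lcn2, the transient members were Saa3, a serum amyloid, Steap4, a metal reductase, Hp, haptoglobin, Lrg1, Ch25h, which makes 25-hydroxycholesterol, Cp, ceruloplasmin, and Serpina3h. The 2 probes of Cp had called interactions of opposite sign, so its class rests on the brighter one. Saa3 was at least 9.28-fold and Steap4 at least 4.65-fold higher at P5, since neither was well above background on a P5 PBS array.

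Not every acute-phase response ended by P10. Serpina3f, Serpina3g and Serpina3i were called at both ages although each interaction was called too. Serpina3g had a median of 6.14 with PBS and 12.10 with IL1B at P5, and of 4.54 and 7.72 at P10, with no overlap at either age. Its response went from 6.36 to 3.33, with an interaction of -3.03 ± 0.46 (adjusted p = 0.000152, limma). Serpina3n, the member of the family best known from reactive astrocytes, had 0.25 at P5 and 0.72 at P10, and its interaction of 0.46 was not called (adjusted p = 0.127, limma).

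IL1 and NF-kappaB genes were partly transient and partly lasting. Among 23 genes, 10 had the more positive response at P5 and 0 at P10 (6.73% and 11.6% of all genes), with a median of 0.97 at P5 and 0.06 at P10. Myd88, the adaptor of the receptor, and the subunits Nfkb2, Rel and Relb were transient higher, although Rel was well above background on no PBS array and on 4 of 6 P5 IL1B arrays. Nfkb2 had a median of 8.25 and 9.85 at P5 and of 8.11 and 7.81 at P10, with an interaction of -1.87 ± 0.21 (adjusted p = 3.81e-06, limma). Il1r2, the decoy receptor, was transient too (2.58 at P5, 0.04 at P10, interaction adjusted p = 0.00447, limma). Tnip1, an inhibitor, was transient as well (0.93 and -0.14). The cytokines Il1a and Il1b, the inhibitor Tnfaip3 and Nfkbiz, a nuclear modulator of NF-kappaB, were lasting, and none of these 4 had a called interaction. Bcl3, a nuclear cofactor of NF-kappaB, was called at both ages, with 2.99 at P5 and 0.77 at P10 (interaction -2.22 ± 0.23, adjusted p = 1.8e-06, limma).

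Il1b itself kept its response while its level was lower at P10 than at P5, on slides and scan days that the ages do not share. Its transcript (probe at chr2:129190347-129190406, mm9) had 9.76 to 10.68 (median 10.40) on PBS arrays and 12.56 to 13.01 (median 12.72) on IL1B arrays at P5. At P10 the ranges were 5.77 to 7.18 (median 6.24) and 8.76 to 9.67 (median 8.97). PBS and IL1B arrays did not overlap at either age, yet the P10 IL1B arrays lay below the P5 PBS arrays. The responses were 2.46 ± 0.16 and 2.74 ± 0.25, and the interaction of 0.28 ± 0.31 was not called (adjusted p = 0.623, limma) and was -0.35 with normexp background correction. The signal counts the mouse transcript and not the injected protein.

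Among IL6 family genes and STAT3 targets, 7 of 17 had the more positive response at P5, beside 6.73% of all genes. Socs3, the feedback inhibitor of STAT3 signalling, had a response of 2.21 at P5 and of 0.53 at P10 (interaction -1.68 ± 0.21, adjusted p = 1.42e-05, limma). Immediate early genes were divided: of 21, 5 were transient (3 with slide as a block) and 6 lasting. Fosl2 was transient (2.02 and 0.31), whereas Fos was lasting with 1.12 ± 0.12 and 0.92 ± 0.12 (interaction adjusted p = 0.532, limma).

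Glucocorticoid-response genes, which report the stress hormone axis, were transient in 5 of 12 (Per1, Fkbp5, Tsc22d3, Zbtb16 and Hif3a). Of the 12, 7 had the more positive response at P5, where 6.73% of all genes did. Per1, also a clock gene, had 11.58 to 12.14 (median 11.92) on PBS arrays and 13.67 to 14.11 (median 14.03) on IL1B arrays at P5, and 11.26 to 11.48 (median 11.42) and 11.22 to 11.74 (median 11.55) at P10. Its interaction was -1.97 ± 0.14 (adjusted p = 1.71e-08, limma), called for 1 of its 2 probes. Iron and metal genes went both ways. Mt1 and Mt2, metallothioneins, and Hmox1, which degrades haem, were transient higher, while Tfrc, the transferrin receptor that takes up iron, was transient lower by all 3 of its probes (-1.08 at P5, -0.05 at P10, interaction 1.03 ± 0.14, adjusted p = 3.47e-05, limma). Trf, transferrin, an abundant product of oligodendrocytes, was transient higher too, at 1.11 and -0.57, with an interaction of -1.68 ± 0.20 (adjusted p = 1.07e-05, limma).

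Transient falls were led by genes of blood vessels. Gja5, connexin 40 of arterial endothelium (probe at chr3:96857349-96857408, mm9), had 10.05 to 11.49 (median 10.80) on PBS arrays and 6.86 to 7.73 (median 7.45) on IL1B arrays at P5. At P10 the groups overlapped, at 9.88 to 11 (median 10.53) and 9.81 to 10.80 (median 10.21). The response of -3.37 ± 0.25 at P5 and -0.22 ± 0.24 at P10 gave an interaction of 3.14 ± 0.36 (adjusted p = 5.77e-06, limma), called for 1 of its 3 probes. Sox18, a transcription factor of endothelial cells, had -2.25 at P5 and -0.12 at P10 (interaction 2.12 ± 0.30, adjusted p = 6.3e-05, limma).

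Of the other leading genes, Gpr182 and Foxc2 are also known from endothelium, Mmrn1 is a multimerin of platelets and endothelium, and Serpina1c and Serpina1e encode near-identical alpha-1 antitrypsins. Mogat2 and Degs2 are lipid enzymes and Syt15 is a synaptotagmin. Their interactions lay between 2.01 and 2.67, and every P5 IL1B array lay below every P5 PBS array, as the choice of leading genes required. For Mmrn1 and Serpina1e the interaction was called for 1 of 2 probes each. Among 20 endothelial genes, 14 were lower at P5 (1.49% of all probes were) and 0 were called at P10 by limma, with median responses of -0.85 and -0.02. An interaction was called for 10, all with the more positive response at P10, as for 11.6% of all genes, and 8 were transient lower, including Cldn5, a tight junction protein of the blood-brain barrier (-1.27 and 0.13).

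Vascular activation went the other way. Of 10 genes, 8 had the more positive response at P5, where 6.73% of all genes did. The median response was 2.14 at P5 and -0.01 at P10. Sele and Selp, adhesion molecules of inflamed vessels, were well above background on 0 of 6 P5 PBS arrays and on 6 of 6 P5 IL1B arrays, which makes them at least 2.08-fold and 10-fold higher at P5. At P10 neither was well above background on any array. Icam1 was called at both ages (1.93 and 0.78, interaction -1.16 ± 0.24, adjusted p = 0.00245, limma), and Vcam1 only at P5, although its responses of 0.70 and 0.66 hardly differed (interaction -0.03 ± 0.17, adjusted p = 0.931, limma).

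Endothelial markers therefore moved with these results. The summed intensity of 8 markers was 26000 to 55600 on P5 PBS arrays and 17000 to 25100 on P5 IL1B arrays, without overlap, and 17800 to 25500 and 18900 to 26600 at P10. By the mean log2 signal of the same markers the P5 groups overlapped slightly, at 10.44 to 11.43 with PBS and 9.95 to 10.46 with IL1B. In sorted cells measured in bulk, fewer cells of a type and less RNA per cell cannot be told apart. Within the slides that hold both groups, the median endothelial response was -0.93 and -0.68 at P5 and 0.02 and 0.12 at P10. The part of endothelial cells in the transient changes was not tested.

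Other leukocyte markers moved as well. All 18 microglial markers were above background on every array, and their summed intensity was 333000 to 410000 with PBS and 545000 to 662000 with IL1B at P5, against 268000 to 348000 and 281000 to 379000 at P10. Of these markers, 11 were called higher at P5 and 7 at P10, and 7 of 18 had the more positive response at P5, where 6.73% of all genes did. This number was 3 with slide as a block and 10 with 75th percentile scaling. Tmem119, restricted to microglia in brain, had 1.08 at P5 and 0.05 at P10 (interaction -1.02 ± 0.20, adjusted p = 0.00148, limma). Neutrophil and monocyte markers summed to 558 to 822 and 2280 to 34700 at P5 and to 530 to 758 and 808 to 2040 at P10, and 2 of the 12 were above background on all arrays. Of 9 markers of border-associated macrophages, 4 were transient higher (Mrc1, Stab1, Ms4a7 and Cbr2), and 2 of 9 were with slide as a block. The part of these cells in the inflammatory genes above and below was not tested.

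Lasting rises were led by interferon-inducible GTPases and antigen presentation. Tgtp2, a GTPase that attacks the vacuoles of intracellular parasites (probe at chr11:48871837-48871896, mm9), had 6.24 to 7.4 (median 7.14) on PBS arrays and 11.76 to 13.62 (median 12.30) on IL1B arrays at P5. At P10 it had 6.61 to 6.95 (median 6.79) and 9.95 to 12.22 (median 10.55). No arrays overlapped at either age, and the response was 5.39 ± 0.31 (35.9-fold) at P5 and 4.02 ± 0.31 (13.5-fold) at P10. The interaction of -1.37 ± 0.45 passed narrowly (adjusted p = 0.0467, limma), and 1 of the 2 Tgtp2 probes was called. It did not pass with slide as a block (0.259), with 75th percentile scaling (0.0664) or in 19 of the 24 fits that left out 1 array. Tgtp1 is a near-identical copy, so the signals of the 2 genes are uncertain.

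The GTPase list was similar: 14 of 16 genes were higher at P5, 11 at P10, and the same 11 were lasting. Median responses were 1.91 and 1.14. An interaction with the more positive response at P5 was called for 9, beside 6.73% of all genes (Gbp2 the most, from 4.18 to 1.88, interaction -2.29 ± 0.45, adjusted p = 0.00161, limma). That count was 6 to 11 when single arrays were left out and 1 with slide as a block, so the fall in size is less firm than the response at each age. Within slides, the median response was 1.57 and 1.87 at P5 and 1.09 and 1.00 at P10. P5 IL1B replicate 4 had the highest mean of this list at P5 (10.42) and P10 IL1B replicate 3 the highest at P10 (8.72), with medians of 9.18 and 7.88.

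Antigen presentation by MHC class I held its response. Of 18 genes of class I and the immunoproteasome, 11 were higher at P5 and 13 at P10, 10 were lasting, and the median response was 0.77 and 1.14. B2m, the light chain shared by class I molecules, had 13.13 to 13.59 (median 13.39) and 14.44 to 14.96 (median 14.52) at P5, and 11.76 to 12.67 (median 12.23) and 13.37 to 14.20 (median 13.85) at P10. Every IL1B array exceeded every PBS array of its age, with responses of 1.2 and 1.58 (interaction 0.38 ± 0.20, adjusted p = 0.241, limma). Nlrc5, the activator of class I genes, had 3.28 and 3.05. H2-T10 and H2-Q8 had the more positive response at P10 (1 to 4 genes of the list when single arrays were left out, 4 without P5 IL1B replicate 4), H2-T10 as a late gene (0.22 and 1.19, interaction 0.97 ± 0.18, adjusted p = 0.000783, limma), and probes of H2 genes can share targets.

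MHC class II genes divided among themselves. Cd74, the invariant chain that guides class II molecules, was lasting: medians of 7.08 and 10.17 at P5 and of 6.22 and 10.11 at P10, with responses of 3.21 and 3.76 (interaction adjusted p = 0.467, limma). H2-Eb1, a class II chain, was lasting with 2.26 and 1.93. H2-Oa and H2-DMb1, which regulate peptide loading, were transient (1.62 and 0.06, and 1.65 and 0.32), with interactions of -1.56 and -1.33 (adjusted p = 0.00317 and 0.022, limma), neither of which was called with slide as a block. Both kinds hold a Y box before the start site, shown for H2-Eb1 and H2-Oa.
H2-Eb1 (chr17:34305787-34305866, plus strand): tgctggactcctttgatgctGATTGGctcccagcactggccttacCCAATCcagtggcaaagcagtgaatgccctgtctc
H2-Oa (chr17:34092299-34092378, plus strand): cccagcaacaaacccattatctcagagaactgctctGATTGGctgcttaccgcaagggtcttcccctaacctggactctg
It was in 7 of the 8 windows of the class II list.

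Type I interferon genes were weak at both ages: of 23, 11 were higher at P5, 8 at P10 and 4 lasting, with medians of 0.71 and 0.59. The only called interaction was that of Ifit2, which was late (0.20 and 0.79, adjusted p = 0.015, limma), and with slide as a block no interaction was called and no gene was lasting. The number of lasting genes was 2 without P10 PBS replicate 3 or 4 or without P10 IL1B replicate 5. Of 5 CC chemokines called at P5, 4 were lasting, and 2 without P10 IL1B replicate 3 or with slide as a block. Ccl3 and Ccl4, which attract monocytes, had 1.16 and 1.27 at P5 and 1.44 and 1.22 at P10, and neither interaction was called. CXC chemokines went both ways. Cxcl1, a neutrophil attractant, was higher at both ages (1.09 and 2.10), and its interaction passed only narrowly (adjusted p = 0.0499, limma). Cxcl9 was transient (2.68 and 0.52), and Cxcl12 was transient lower (-1.90 and -0.30). Of the 12 CXC genes, 2 had the more positive response at P10, beside 11.6% of all genes. That count was 1 to 3 when single arrays were left out and 1 with slide as a block. The 4 lasting CXC genes became 1 with the block.

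Complement was reduced rather than lost. Of 11 genes, 10 were higher at P5 and 6 at P10. The more positive response at P5 was called for 7, beside 6.73% of all genes, and the median response went from 1.69 to 0.66. C1qa had 12.76 to 13.52 (median 13.30) and 14.64 to 15.06 (median 14.87) at P5, and 11.60 to 12.35 (median 11.84) and 12.17 to 12.89 (median 12.56) at P10, where the ranges overlapped. It is a microglial marker as well. C5ar1, the receptor of the C5a fragment, was transient (3.20 and 0.33) and above background on 1 of 6 P5 PBS arrays, and Cfb, a factor of the alternative pathway, lasting (2.92 and 2.15).

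Of the other leading lasting genes, Gbp4, Gm12250 and Igtp are GTPases of the same family, Mpeg1 is a pore-forming protein of macrophages and Plbd1 a phospholipase-like lysosomal protein. Over all 336 lasting higher probes, 212 had no called interaction, 117 the more positive response at P5 and 7 at P10. Within slides, their median response was 1.61 and 1.80 at P5 and 1.10 and 0.96 at P10. The class was defined on these same arrays, so positive values follow largely from that choice. With slide as a block, 206 probes were lasting higher, of which 203 were among the 336.

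Lasting falls were few, 44 probes and 29 genes, and 5 met the rule for naming. Unc5b, a netrin receptor, had 10.10 to 11.25 (median 10.61) and 8.90 to 9.37 (median 9.25) at P5, and 12.49 to 12.67 (median 12.64) and 11.52 to 12.28 (median 11.86) at P10, without overlap at either age. Its response of -1.46 and -0.71 differed between ages (interaction 0.75 ± 0.22, adjusted p = 0.0259, limma), but not with slide as a block (0.062). The others were Fbln2, an extracellular matrix protein, Atp2a3, a calcium pump, Hs3st1, a heparan sulfate enzyme, and Mob3b. Their responses lay between -0.60 and -0.79 at P5 and between -0.70 and -0.96 at P10. None had a called interaction by the probe used. Of the 2 probes of Mob3b, the other had a called interaction with the more positive response at P10.

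Structural myelin genes had negative median responses at both ages. Of 18 genes, 1 was called lower at P5 and 9 at P10, with medians of -0.35 and -0.60 against -0.05 and -0.01 over all genes. Opalin was lasting lower, with 4.02 to 4.83 (median 4.35) and 3.09 to 3.96 (median 3.64) at P5, and 10.46 to 10.84 and 9.08 to 10.16 at P10 (responses -0.78 and -1.27, interaction -0.49 ± 0.24, adjusted p = 0.222, limma). Mog had -0.42 and -0.87 (interaction adjusted p = 0.125, limma) and Mbp -0.53 and -0.72 (0.61). In the main fit 1 of the 18 had a called interaction, with the more positive response at P10, and 0 had the more negative response at P10. With 75th percentile scaling 4 of the 18 had the more negative response at P10, and the list's median interaction was -0.48 against -0.11 over all probes.

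Most late rises of leading genes belonged to cell division. Ccnb1, the cyclin that drives entry into mitosis (probe at chr13:101548722-101548781, mm9), had 11.54 to 11.72 (median 11.61) on PBS arrays and 11.05 to 11.50 (median 11.24) on IL1B arrays at P5. At P10 it had 9.59 to 10.47 (median 9.98) and 10.73 to 11.30 (median 11.17). The IL1B arrays lay below all PBS arrays at P5 and above all of them at P10. The response of -0.35 ± 0.07 was under the fold threshold at P5, that of 1.07 ± 0.14 was called at P10, and the interaction was 1.42 ± 0.16 (adjusted p = 6.07e-06, limma), with all 3 probes called. Ccna2 behaved alike (-0.39 and 1.01, interaction 1.40 ± 0.13, adjusted p = 6.78e-07, limma).

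Mitosis genes shared the direction. Of 24, 22 had the more positive response at P10 and 0 at P5, beside 11.6% and 6.73% of all genes, and the median was -0.31 at P5 and 0.86 at P10. There were 19 late higher genes, among them Mki67, the proliferation antigen, Top2a, Plk1, Bub1b and Cdc20, and 2 opposite ones, Cenpf and Kif20a, which were called lower at P5. The exceptions were Aurkb, above background on no array (0.23, adjusted p = 0.714, limma), and Cdk1 (0.65, adjusted p = 0.394, limma). The count of 22 was the same when any single array was left out, with slide as a block and with 75th percentile scaling, and within slides the median response was -0.43 and -0.19 at P5 and 0.80 and 0.97 at P10.

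The late difference at P10 lay between PBS cells of both ages. The mean signal of the mitosis list was 9.91 to 10.20 (median 10.09) in P5 PBS cells and 8.33 to 8.84 (median 8.57) in P10 PBS cells, without overlap. In IL1B cells it was 9.60 to 9.89 (median 9.73) at P5 and 9.20 to 9.57 (median 9.47) at P10. For each of the 24 genes, the P10 IL1B mean lay between the PBS means of the 2 ages. This description shares the P10 PBS arrays with the interaction and is not a second line of evidence.

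Astrocyte markers differed at P10 too. The summed intensity of 8 of them was 31400 to 43200 with PBS and 44700 to 54600 with IL1B at P10, without overlap, and 35800 to 48500 and 34300 to 65900 at P5, overlapping. At P10 3 of the 8 were called higher (Aldh1l1, Aqp4 and Slc1a3), and no interaction was called. Erythroid markers summed to 21900 to 63700 and 42200 to 164000 at P10, and 2 of 4 were called higher there. The part of these cells in the late changes was not tested.

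**Figure D3:**
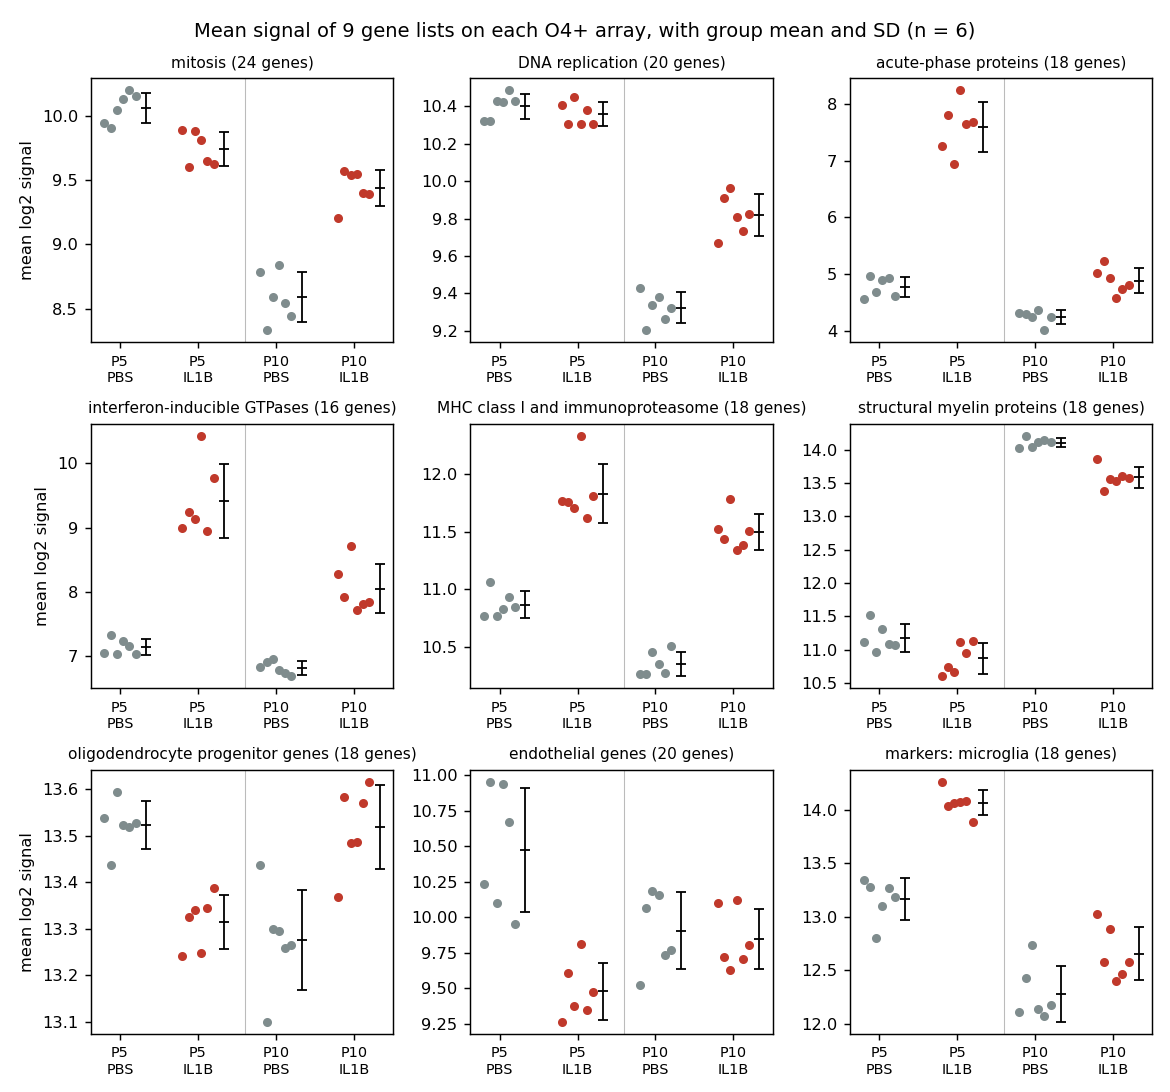
Mean log2 signal (vertical axes) over the genes of 9 lists on each of the 24 O4+ arrays, PBS in grey and IL1B in red at P5 and P10, with bars for the mean and SD of 6 arrays. Mitosis genes lie below PBS with IL1B at P5 and above it at P10, acute-phase genes are high only in P5 IL1B cells, and microglial markers are highest in P5 IL1B cells.

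DNA replication genes had no called response at P5 and 8 of 20 higher at P10, all late, of which 5 were late without P10 IL1B replicate 2, 3 or 4. The interaction was called for 16 of 20, beside 11.6% of all genes, with a median of 0.56 over the list. Rrm2, a subunit of ribonucleotide reductase, had medians of 12.76 and 12.70 at P5 and of 10.98 and 12.02 at P10 (interaction 1.05 ± 0.13, adjusted p = 1.99e-05, limma). Mcm6, a subunit of the replicative helicase, had -0.03 and 0.73. Pcna (0.19, adjusted p = 0.357, limma) and E2f1 (0.27, 0.221) had no called interaction. E2F motifs (TTTGGCGC or TTTCCCGC) were in 37.5% of the 16 windows of this list, against 1.56% of all windows. Of 15 genes of the G1 phase, 7 (4 with slide as a block) had the more positive response at P10, where 11.6% of all genes did, including the cyclins Ccnd1 and Ccnd2 and also the inhibitors Cdkn2a, Cdkn2c and the pocket protein Rbl1, which restrain the cycle.

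Progenitor genes moved in the same direction but less firmly. Of 18, 9 had the more positive response at P10 and 0 at P5, beside 11.6% and 6.73% of all genes. Pdgfra, the growth factor receptor that defines progenitors, had 15.65 to 15.98 (median 15.78) and 15.50 to 15.82 (median 15.75) at P5, overlapping, and 13.98 to 14.93 (median 14.50) and 15.00 to 15.71 (median 15.39) at P10, apart. Its interaction was 1.00 ± 0.18 (adjusted p = 0.000912, limma). Cspg5, a proteoglycan, was late with -0.13 and 0.73. The count of 9 was 4 with slide as a block, and 4 with 1 the other way under 75th percentile scaling. Among lineage transcription factors, Olig2 (0.47 ± 0.10, adjusted p = 0.00337, limma) and Nkx2-2 (0.70 ± 0.11, 0.000192) had called interactions, and Sox17, shared with endothelium, was transient lower. Of the inhibitors of differentiation, Hes5 was late (-0.38 and 0.68), Id3 transient lower (-0.55 and 0.22) and Id2 lasting, at 1.45 and 0.76 (interaction -0.69 ± 0.13, adjusted p = 0.000913, limma). No gene of that list was late with slide as a block or with 75th percentile scaling. Its transient lower genes numbered 2, 1 to 3 when single arrays were left out, and 0 with slide as a block. In each of these 2 settings 3 genes of the list had the more positive response at P10, as in the main fit.

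The largest late rises belonged to other genes. Itgax, the integrin CD11c of dendritic cells and of microglia in developing white matter (probe at chr7:135294052-135294111, mm9), had 8.03 to 9.32 (median 8.47) and 8.33 to 9.76 (median 9.09) at P5, overlapping, and 4.81 to 5.98 (median 5.32) and 6.51 to 9.25 (median 7.77) at P10, apart. The interaction of 1.94 ± 0.55 (adjusted p = 0.02, limma) did not pass with slide as a block (0.406). The responses of Itgax were 0.48 at P5 and 2.43 at P10. Of its companions in white-matter microglia, Clec7a, a lectin receptor, had responses of 1.93 and 3.45 (interaction 1.52 ± 0.38, adjusted p = 0.0102, limma). Spp1, osteopontin, had responses of 0.98 and 2.90 (interaction adjusted p = 0.0667, limma). Axl, a receptor kinase, and Csf1, a growth factor of microglia, were transient instead. With slide as a block, none of the 15 genes of this list had the more positive response at P10. Without the block 3 did, beside 11.6% of all genes.

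Other leading late genes were Lct, lactase (0.26 and 2.10), Oip5, which helps to load the centromere histone, Mxd3, a partner of MAX, Cdc25c, a phosphatase of mitotic entry, Itga11, a collagen-binding integrin, and Zfp951. Interactions ran from 1.39 to 1.84. Those of Lct, Itga11 and Zfp951 did not pass with slide as a block, and 1 of the 2 Zfp951 probes was called in the main fit.

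All 10 leading late falls were genes with a higher PBS median at P10 than at P5. The rule for the class uses the same PBS arrays, which favours such a difference. Kcne4, an accessory subunit of potassium channels (probe at chr1:78815838-78815897, mm9), had 6.30 to 6.79 (median 6.71) and 6.47 to 7.34 (median 6.79) at P5, and 8.90 to 9.84 (median 9.48) and 6.84 to 8.63 (median 7.2) at P10. The groups overlapped at P5 and stood apart at P10, with an interaction of -2.01 ± 0.38 (adjusted p = 0.00116, limma) called for both probes. Within slides the P10 response was -2.48 on 1 slide and -0.40 on the other, which holds 1 array of each group. Rab44, a GTPase, had responses of 0.39 and -1.24, and Alox5, 5-lipoxygenase, of 0.42 and -0.83.

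Tmem63a, a mechanosensitive channel whose human counterpart is mutated in a hypomyelinating disorder, had 10.44 to 10.95 (median 10.79) and 11.13 to 11.48 (median 11.30) at P5, and 12.15 to 13.05 (median 12.51) and 11.42 to 12.06 (median 11.77) at P10. Here the IL1B arrays lay above all PBS arrays at P5 and below them at P10, although the P5 response stayed under the fold threshold (interaction -1.33 ± 0.18, adjusted p = 4.9e-05, limma). Grhl1, Rab7b, Cdc42ep2, Tdh and Rtkn2 were also among the 10, with interactions between -1.38 and -1.15. In 9 of the 10, Rtkn2 excepted, the P10 IL1B median lay between the PBS medians of the 2 ages, which rests on the same P10 PBS arrays.

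Cholesterol synthesis genes had no called response at either age. Of 20, 4 had the more negative response at P10, beside 6.73% of all genes (among them Fdps, Hsd17b7 and Idi1, enzymes of the pathway), with a median interaction of -0.24. This number was 7 without P10 PBS replicate 3 or P10 IL1B replicate 1, and 2 with slide as a block. With 75th percentile scaling the number was 9 and the median -0.44, against -0.11 over all probes. Fdps, farnesyl diphosphate synthase, had 0.00 and -0.39 (interaction -0.38 ± 0.09, adjusted p = 0.00584, limma). Of 10 genes of myelin lipid synthesis, Elovl1 alone had a called interaction (-0.51 ± 0.10, adjusted p = 0.0011, limma), and with 75th percentile scaling 6 did.

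Opposite responses were the rarest, 46 probes and 27 genes, and 25 of the probes were higher at P5 and lower at P10. Ninj1, a membrane protein named for its induction in injured nerve (probe at chr13:49291553-49291612, mm9), had 11.44 to 12.01 (median 11.77) and 12.84 to 13.25 (median 13.08) at P5, and 13.78 to 14.27 (median 13.90) and 12.95 to 13.70 (median 13.30) at P10. IL1B arrays lay above all PBS arrays at P5 and below all of them at P10, and the interaction was -1.94 ± 0.17 (adjusted p = 2.81e-07, limma). Bmf, a BH3-only protein that promotes cell death, had 1.33 and -0.67, and Man1a, a mannosidase of glycoprotein maturation, 1.37 and -0.78. Hivep3 had 1.39 and -0.82, with the interaction called for 1 of its 2 probes, and Adamtsl4 had 0.67 and -1.53. Klf9, a transcription factor induced by glucocorticoid and thyroid hormone, had 0.90 and -0.80 (interaction -1.70 ± 0.15, adjusted p = 3.04e-07, limma). All 6 were higher in P10 than in P5 PBS cells by their medians. This description shares the PBS arrays with the interaction and is not a second line of evidence.

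**Figure D4:**
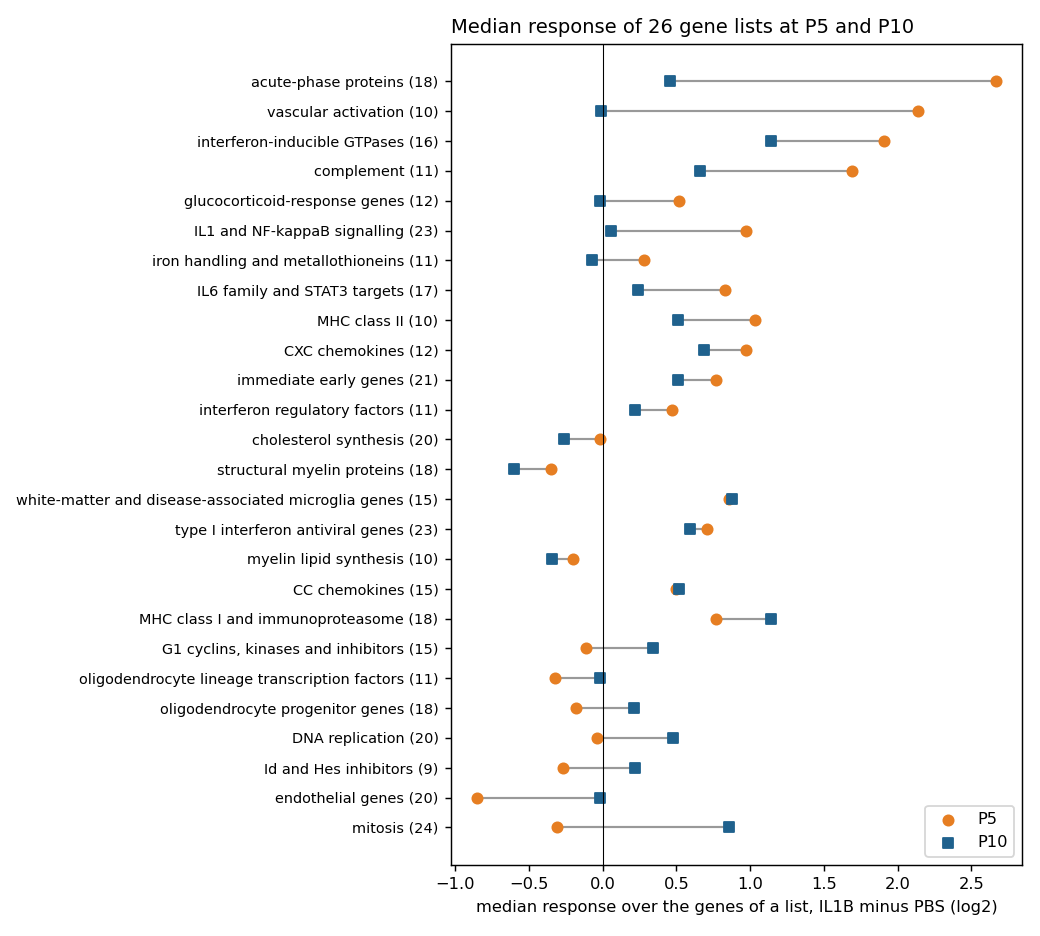
Median response to IL1B (horizontal axis, log2) over the genes of 26 lists at P5 (circles) and P10 (squares), with the number of genes in brackets, sorted by the median interaction. Acute-phase and vascular activation genes have the widest shift towards 0 at P10, MHC class I genes are at 0.77 and 1.14, and mitosis genes cross from -0.31 to 0.86.

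CD11B+ cells of the same animals show which of these age differences differed between the cell types. The interaction in O4+ cells minus that in CD11B+ cells, from 1 fit of 48 arrays, was more positive in O4+ cells for 1208 probes (2.17%) and more negative for 2067 (3.71%). This fit takes the arrays as independent although both cell types came from the same animals. With the replicate number within a group as a random block the counts were 1595 and 2727, and with slide as a block 355 and 535. Of the 555 transient higher genes, 189 had a more negative interaction in O4+ than in CD11B+ cells and 15 a more positive one, and the median interaction was -1.09 in O4+ and -0.43 in CD11B+ cells. For 228 of the 555 the interaction was called in CD11B+ cells with the same sign, where 7.76% of all probes were called in that direction, so a change of the response with age was called in both. The interaction of Lcn2 in this fit was -6.53 in O4+ and -3.42 in CD11B+ cells (difference -3.11 ± 0.65, adjusted p = 0.00155, limma). The other acute-phase genes with a called difference went the other way: Lrg1, Orm1, Orm2, Saa1 and Saa2 were more positive in O4+ cells, and the list had medians of -2.45 in O4+ and -2.69 in CD11B+ cells. Per1 had a difference of -1.77 ± 0.20 (adjusted p = 9.88e-08, limma) and Csf1 one of -2.32 ± 0.22 (adjusted p = 9.68e-10, limma), since Csf1 had an interaction of 1.32 in CD11B+ cells.

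Late higher genes included many with a called interaction in both cell types. Of 439 late higher genes, 227 had the same sign of a called interaction in CD11B+ cells (12.4% of all probes), with medians of 0.91 and 0.71, and 45 differed upward and 3 downward. In the mitosis list the medians were 1.28 and 0.87 and only 2 of 24 genes, Ccnb1 and Ccna2, had a called difference (0.74 ± 0.22 and 0.62 ± 0.19). In the DNA replication list 5 of 20 were more negative in O4+ cells and 0 more positive. Of 176 late lower genes, 40 were more negative in O4+ cells, 25 had a called interaction of the same sign in CD11B+ cells, and the medians were -0.86 and -0.21. Rab7b had -1.30 in O4+ and 1.09 in CD11B+ cells (difference -2.38 ± 0.29, adjusted p = 4.46e-07, limma).

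Among the lists, cholesterol synthesis had the largest share of such differences, with 12 of 20 genes more negative in O4+ cells (medians -0.25 and 0.44), beside 3.71% of all probes. Interferon-inducible GTPases, MHC class II genes and type I interferon genes had no called difference, and MHC class I genes 1, Tap2. Of the 18 microglial markers, 6 were more negative in O4+ cells (medians -0.51 and 0.08) and none more positive, and of 11 complement genes 5 and 0. For Ninj1 the interaction was -2.01 in O4+ and -0.03 in CD11B+ cells (difference -1.99 ± 0.21, adjusted p = 2.8e-08, limma), and for Man1a -2.12 and 0.00 (difference -2.12 ± 0.29, adjusted p = 4.04e-06, limma).

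**Figure D5:**
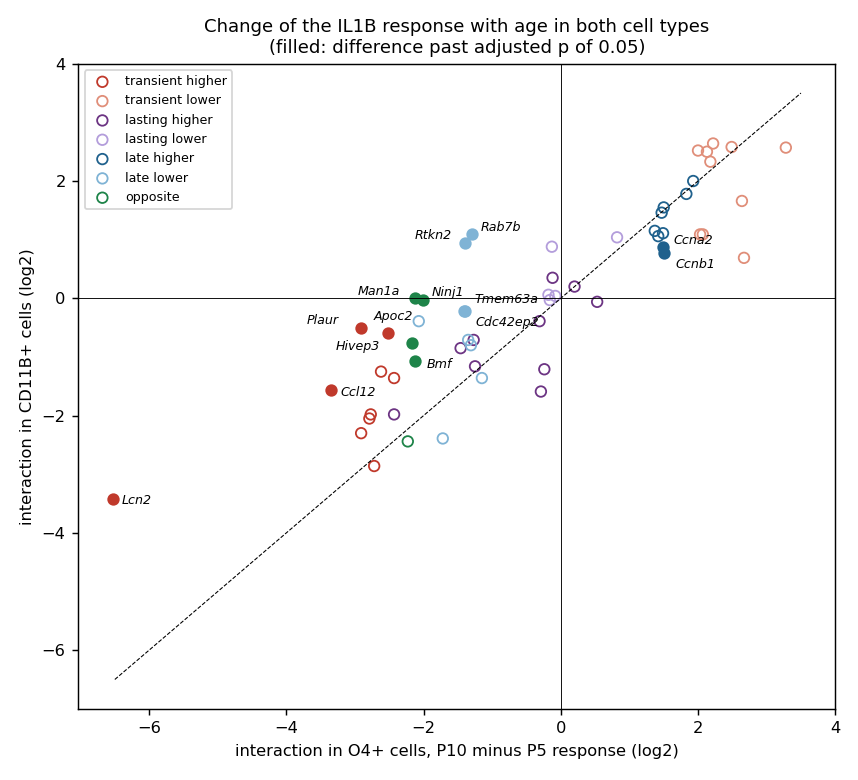
Interaction (P10 minus P5 response, log2) in O4+ cells (horizontal axis) and in CD11B+ cells (vertical axis) for the named genes, coloured by class, from 1 fit of 48 arrays. Filled points are the 14 genes whose interaction differed between the cell types at an adjusted p under 0.05, and equal interactions lie on the dashed line. Lcn2 lies at -6.53 and -3.42, and Ninj1 and Man1a lie near 0 on the vertical axis.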

How the data were processed

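The 24 O4+ and 24 CD11B+ samples were assigned to groups by their titles. RNA was labelled with Cy3 and hybridised by the authors to 1-color Agilent 8x60K mouse arrays, read with Agilent Feature Extraction 10.7.3.1 per the file headers. The deposited scanner files hold the intensity of each spot, its background and a background-subtracted intensity. Spots at or under background carry a small positive number there. The deposited matrix is the ratio of that signal to the array's median (largest deviation 1.86e-05 on log2) and was used as an alternative. The number of arrays limits the precision, and no depth applies.

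Intensities of 59305 spots besides controls were taken to log2, without 278 non-uniform spots on the 48 arrays, quantile-normalized as in the authors' methods over the O4+ arrays (over all 48 to compare cell types), and averaged to 55681 probes. No spot was saturated. Through RefSeq 27235 probes were named and 5949 by the file's name only, while 22497 carry none, which leaves 24325 genes. Where a list needs 1 probe per gene, the one with the highest mean signal was taken. The list genes H2-T22 and Ly6c2 were not matched. The fits used limma 3.58.1 (R 4.3.3), within an age for the responses and over 24 arrays for the interaction. The methods' plain equal-variance test was an alternative. A fold against a group above background on no array is a lower limit. Probe positions are those of the files (mm9), and promoter windows are of GRCm38.p6. Promoter windows were found for 27025 genes. Scripts were tested on simulated data, and figures drawn with matplotlib 3.10.9 (Python 3.11.15).

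Named genes were the 10 with the largest interaction in the transient and late classes (by the smaller of both responses in the lasting classes, 5 for opposite), above background on all arrays and with IL1B arrays all on 1 side of PBS arrays at each age called, and genes of the lists. The members, lists and rules were chosen with earlier results of these data known. A few genes that these rules name are not reported here. Alternatives were other scalings, background corrections, filters, thresholds and fits, slide, scan date or replicate number as a block, and the omission of each array.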

Additional observations from a re-analysis of the deposited data

Results flagged for a closer look

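The interaction of 14 named genes differed between O4+ and CD11B+ cells in the fit of 48 arrays (limma). It was more negative in O4+ cells by -3.11 for Lcn2, -2.41 for Plaur, -2.38 for Rab7b, -2.34 for Rtkn2, -2.12 for Man1a, -1.99 for Ninj1, -1.93 for Apoc2, -1.78 for Ccl12, -1.41 for Hivep3, -1.20 for Tmem63a, -1.18 for Cdc42ep2 and -1.05 for Bmf. It was more positive by 0.74 for Ccnb1 and 0.62 for Ccna2. Adjusted p-values ran from 2.8e-08 for Ninj1 to 0.0449 for Ccna2. For Rab7b and Rtkn2 the interactions of the cell types had opposite signs (-1.30 and 1.09, -1.40 and 0.95).

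In 19 of the groups of 6 arrays of named genes, 1 array stood apart by a gap whose share of the group's range exceeds Dixon's critical value. Among P5 PBS arrays these gaps were 0.695 for Tgtp2 (replicate 1), 0.695 for Apoc2 (replicate 2), 0.668 for Serpina3b (replicate 5), 0.65 for Wfdc17 (replicate 3), 0.65 for Lcn2 (replicate 2) and 0.637 for Man1a (replicate 2). Among P5 IL1B arrays they were 0.651 for Hif3a (replicate 3) and 0.638 for Unc5b (replicate 1). Among P10 PBS arrays they were 0.826 for Serpina3b (replicate 3), 0.668 for Plaur (replicate 1), 0.666 for Adamtsl4 (replicate 2), 0.661 for Tdh (replicate 1) and 0.642 for Mmrn1 (replicate 1). Among P10 IL1B arrays they were 0.841 for Gm12250 (replicate 3), 0.796 for Plbd1 (replicate 4), 0.721 for Rab44 (replicate 2), 0.716 for Grhl1 (replicate 1), 0.647 for Mxd3 (replicate 6) and 0.631 for Mmrn1 (replicate 5). Over all named and listed genes 112 of 1401 groups had such an array (7.99%), where chance gives about 1 in 20. Replicate 4 of P5 IL1B had 14 of them and replicate 3 of P10 IL1B 13.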

How the results depend on the processing

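Counts of probes moved with the fold threshold, the background correction, the scaling and the slide. With normexp background correction the P5 response was called for 1116 higher and 259 lower and the P10 response for 608 higher and 371 lower probes, with 178 transient lower, 166 lasting higher, 12 lasting lower, 341 late higher and 12 opposite ones. Without the fold threshold the counts were 3760 and 6416 at P5, 3014 and 3022 at P10, 1318 and 1760 transient, 658 and 758 lasting, 1364 and 928 late (higher and lower) and 565 opposite. The deposited matrix gave 1307 lower at P5, 1577 lower at P10, 100 lasting lower and 70 opposite. Scaling to the 75th percentile gave 2073 lower at P10, interactions of 2888 more positive at P10 and 4938 more positive at P5, 667 late lower, and 3583 interactions more negative in O4+ than in CD11B+ cells. An interaction past 1.5-fold was called for 2004 and 1744 probes. Slide as a block gave 391 lower at P5, 918 higher at P10, interactions of 2015 and 1884, 179 transient lower, 206 lasting higher, 20 lasting lower, 337 late higher, 128 late lower, 22 opposite, and 355 and 535 differences between cell types (more positive and more negative in O4+ cells). This fit compares only arrays that share a slide, and at P5 4 and at P10 3 IL1B arrays have no PBS array beside them, and the cause of the other shifts was not tested.

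Leaving out 1 array at a time gave 1782 to 1958 higher and 700 to 863 lower probes at P5, 1027 to 1504 and 526 to 909 at P10, interactions of 3789 to 5121 and 2517 to 3506, transient counts of 764 to 927 and 304 to 415, lasting counts of 264 to 361 and 28 to 54, late counts of 518 to 910 and 208 to 453, and 33 to 59 opposite. Without P10 PBS replicate 2 there were 28 lasting lower and 208 late lower probes, and without P10 IL1B replicate 2 there were 29 lasting lower ones.

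Replicate numbers recur in the groups, but samples with 1 number did not deviate together (correlations from -0.02 to 0.48, median 0.04, over 0.1 in 2 of 12, best with their own number in 3 of 12), so they were not treated as pairs. With the replicate number as a block, interactions were called for 4776 and 3762 probes, of which 3793 and 2690 were among those called without it, and 912 and 422 were transient, 307 and 36 lasting, 548 and 374 late and 38 opposite.

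Of 960 interaction values of named genes under other settings, 925 kept their direction and side of the threshold, 29 lost the call and 6 changed sign, and of 1440 values without 1 array the numbers were 1391, 45 and 4. Without 1 array, the values ranged from -0.43 to 0.03 for Gm12250, from -0.10 to 0.03 for Hs3st1 and from -0.17 to 0.02 for Mob3b. All changes of sign were of interactions that were not called: Il1b with normexp (-0.35), Mpeg1 with the deposited matrix (0.01), Fbln2 with slide as a block (0.20), Hs3st1 with the deposited matrix (0.00), slide as a fixed (0.12) or random block (0.01), without P5 IL1B replicate 5 (0.03) and without P10 IL1B replicate 2 (0.00), Gm12250 without P5 IL1B replicate 4 (0.03) and Mob3b without P10 PBS replicate 6 (0.02). Lost calls were of Tgtp2, Igtp, Itga11, Unc5b, Itgax, Rtkn2, Gbp2, Lct and Zfp951. Signal over background limits Saa3, Steap4, Sele, Selp and Rel, which PBS arrays did not measure.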
